A study of Rattus norvegicus with 8 samples.

Results

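The genes described here are brakes on the kinase mTOR together with members of the complexes that carry or restrain it. They were chosen by name, as every transcript of Ddit4, Ddit4l, Sesn1, Sesn2, Sesn3, Tsc1, Tsc2, Mtor, Rptor and Eif4ebp1 in the deposited comparison of hippocampal RNA. Of the 10 genes, 9 had a row, with 11 transcripts in all, out of 16266 transcripts of 13272 gene symbols. Sesn1 and Tsc2 had 2 transcripts each, and the expression of Ddit4l, a paralog of Ddit4, was not analysed here.

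RNAseq had been carried out on hippocampi of 8 rats, 4 per group, whose adrenal glands had been removed (ADX), so that both groups lacked their own adrenal corticosterone. The labels name Sprague-Dawley rats of 3-4 months, whereas the methods of the study name male Lister hooded rats that are younger. At ZT 2 the rats were infused for 30 min with corticosterone (CORT) at 0.75 mg/mL, as a complex with 2-hydroxypropyl-β-cyclodextrin, or with 0.45% saline as the vehicle, and the hippocampi were taken 2 hours after its start. The vehicle is described without cyclodextrin, so the steroid and its carrier cannot be told apart. All rats had kept their adrenal glands until surgery, and then drank corticosterone in saline until it was withdrawn before the infusion. They are therefore not a model of a brain that has never met the hormone. The authors' table gives 1 FPKM value per group (fragments per kilobase of transcript, scaled between libraries by geometric normalization, so a level per transcript length). It holds no value for a single rat and no read count. The spread between rats and the depth behind each value could therefore not be given, no test between groups was run here, the authors' own test was not used, and each ratio below compares 2 group values without a replicate check.

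mTOR is a kinase that, within mTOR complex 1 (mTORC1), promotes protein synthesis and growth when amino acids, energy and growth factors are plentiful. The TSC1-TSC2 complex holds mTORC1 off by inactivating the small GTPase Rheb. DDIT4, also called REDD1, is a small stress-inducible protein that acts through TSC1-TSC2, while the sestrins restrain mTORC1 through the GATOR complexes that relay amino acid signals at the lysosome. In neurons mTORC1 controls dendritic protein synthesis, on which long-lasting synaptic plasticity draws, and Ddit4 is known as a glucocorticoid-inducible gene in several tissues.

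The promoter sequences of the genes that the results turn on are shown first. They are the 250 bases before the transcription start given by RefSeq, written 5′ to 3′ on the strand of the gene. Ddit4 and Sesn1 are shown because they had the largest ratios of CORT to vehicle. Tsc2 is shown because it shares with Ddit4 the letters ACGTG, a form of the core of the hypoxia response element. ACGTG is in capitals. The form of the core that begins with G was not searched and is left unmarked where the windows hold it. The windows are chr20:28437038-28437287 (minus strand) for Ddit4, chr20:46948469-46948718 (plus strand) for Sesn1 and chr10:14160240-14160489 (minus strand) for Tsc2, all in GRCr8, which is not the build of the deposited table.
Ddit4: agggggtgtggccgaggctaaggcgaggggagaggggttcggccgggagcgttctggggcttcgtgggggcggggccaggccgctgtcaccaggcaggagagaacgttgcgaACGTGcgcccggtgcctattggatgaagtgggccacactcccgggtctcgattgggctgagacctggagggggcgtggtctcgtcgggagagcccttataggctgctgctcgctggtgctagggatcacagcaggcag
Sesn1: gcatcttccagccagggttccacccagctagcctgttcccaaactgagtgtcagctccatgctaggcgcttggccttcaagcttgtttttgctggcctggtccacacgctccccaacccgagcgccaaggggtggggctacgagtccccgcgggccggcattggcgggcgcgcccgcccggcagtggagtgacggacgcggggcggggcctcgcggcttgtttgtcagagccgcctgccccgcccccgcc
Tsc2: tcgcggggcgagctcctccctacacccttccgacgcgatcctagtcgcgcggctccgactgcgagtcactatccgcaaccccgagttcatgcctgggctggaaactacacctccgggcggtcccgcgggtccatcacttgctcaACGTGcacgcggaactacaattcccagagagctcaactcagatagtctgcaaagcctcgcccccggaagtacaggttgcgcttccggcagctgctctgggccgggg

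A RefSeq window was found for 8 of the 10 genes, Rptor and Eif4ebp1 being the others. ACGTG, searched on both strands, was present in the windows of Ddit4 and Tsc2, 2 of 8, and in 16.6% of the 33469 windows of the same length over all genes. AGAACA, one arm of the element bound by the glucocorticoid receptor, was in none of the 8 windows and in 17.5% of all windows, and the full element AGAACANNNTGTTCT was in none of the 8 and in 0.012% of all. The clock E-box CACGTG, which contains ACGTG, was in none of the 8 and in 5.59% of all. The windows were rich in G and C, with a median of 64.2% for the 8 genes, between 53.6% in Tsc1 and 70.8% in Sesn3, beside a median of 51.2% over all windows. The motif shares over all windows were not matched for G and C, so they are not a like background for the 8. These are matches of letters in a short window, outside which no sequence was searched, and were not tested for binding.

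Ddit4 stood highest among these genes in both groups and had the largest ratio between them. Its 1 transcript, ENSRNOT00000085026.1, on chromosome 20 of rn6 between 29509288 and 29511382, was at 41.5 FPKM under vehicle and 73.9 FPKM under CORT. The CORT value was thus 1.78-fold the vehicle value, a log2 ratio of 0.83. A transcript was called past the fold when it differed by at least 1.5-fold in either direction and reached 1 FPKM in at least one group, which 15808 transcripts did, among them all 11 described here. Ddit4 was the only one of the 11 past the fold. Over all transcripts, 8.45% were past it, 4.00% with the higher value in the CORT group, so that 1 of 11 is a share near the background and says nothing about the genes as a group.

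For Ddit4 itself, the level matters, since low FPKM values scatter more. Among the 4755 transcripts with a mean FPKM of 1 to 5, 15.8% were past the fold. Among the 3918 transcripts with a mean of 20 to 100 FPKM, the range that holds Ddit4 at 57.7 FPKM, 2.22% were past it and 1.40% were higher with CORT. Of these 3918 transcripts, 36 had a larger log2 ratio than Ddit4, which is 0.919%. Over all levels, 369 of 15808 transcripts had a larger ratio.

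The sestrins did not move alike. Sesn1, known as a target of p53 and an inhibitor of mTORC1, was higher in the CORT group in both of its transcripts on chromosome 20 (46667120 to 46758305 in rn6), below the fold. The more abundant, ENSRNOT00000065890.1, was at 14.4 FPKM under vehicle and 19.0 FPKM under CORT, a log2 ratio of 0.40. The other, ENSRNOT00000089611.1, was at 7.40 FPKM under vehicle and 9.88 FPKM under CORT, a log2 ratio of 0.42. The balance between the transcripts was nearly the same in both groups, with 66.1% of the summed FPKM in the more abundant one with vehicle and 65.8% with CORT. As both are estimated from the reads of 1 gene, they are not independent of each other. In total Sesn1 was at 21.8 FPKM under vehicle and 28.9 FPKM under CORT, 1.32-fold higher.

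Both lay in the range of 5 to 20 FPKM, which holds each of the 11 transcripts except Ddit4 and in which 3.60% of transcripts were past the fold. Of the 5837 transcripts in this range, 3.73% had a larger log2 ratio than its 0.42 and 4.13% a larger one than the 0.40 of the more abundant. Both passed a lower threshold, a value at least 25% higher in the CORT group, which 9.17% of all transcripts passed. In either direction, with the higher value at least 25% above the lower, 19.3% of all transcripts passed. So did 3 of the 11, the third being Ddit4. At 2-fold, which 3.56% of all transcripts passed, none of the 11 was left.

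Sesn2, the leucine sensor that binds GATOR2 and is induced by ATF4 under stress, lay on chromosome 5 between 150684132 and 150704117. It was at 5.79 FPKM under vehicle and 5.71 FPKM under CORT, a log2 ratio of -0.02. Sesn3, a sestrin known as a target of FoxO factors, lay on chromosome 8 between 12823154 and 12872705 and was at 9.88 FPKM under vehicle and 10.04 FPKM under CORT, a log2 ratio of 0.02. Both ratios were close to the median of all transcripts, 0.02, and that of Sesn3 turned just below zero when ratios were centred on that median.

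The TSC genes were slightly higher with CORT and below the fold. Tsc1, which stabilizes TSC2 in the complex, lay on chromosome 3 between 7237191 and 7265145 and was at 7.42 FPKM under vehicle and 8.29 FPKM under CORT, a log2 ratio of 0.16. Tsc2, whose product inactivates Rheb, lay on chromosome 10 within a deposited locus from 13915213 to 13996584. Its transcript ENSRNOT00000016221.3 was at 15.4 FPKM under vehicle and 16.1 FPKM under CORT, a log2 ratio of 0.06. Its other transcript, ENSRNOT00000052138.6, was at 10.8 FPKM under vehicle and 13.2 FPKM under CORT, a log2 ratio of 0.28.

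The larger difference in the second Tsc2 transcript was accompanied by a shift in the balance of the pair, since the more abundant transcript took 58.7% of the summed Tsc2 FPKM with vehicle and 55.0% with CORT. With both summed, Tsc2 was at 26.3 FPKM under vehicle and 29.3 FPKM under CORT, a log2 ratio of 0.16 that was the same as that of Tsc1 to 2 decimals. The summed Tsc2 level was accordingly 3.54 times that of Tsc1 with vehicle and 3.53 times with CORT. Overlaps were sought only among genes with a row. The deposited Tsc2 locus overlaps that of 1 such gene, the neighbouring Pkd1. No other gene with a row overlapped the loci of the remaining genes, and genes without a row were not looked at.

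The core of mTORC1 differed little. Mtor, the kinase, lay on chromosome 5 between 165263799 and 165373967 and was at 12.4 FPKM under vehicle and 13.1 FPKM under CORT, a log2 ratio of 0.07. Rptor, which encodes raptor, the subunit that recruits substrates to mTORC1, lay on chromosome 10 between 108750619 and 109058691 and was at 10.8 FPKM under vehicle and 12.1 FPKM under CORT, a log2 ratio of 0.15. Mtor was 1.15 times as abundant as Rptor with vehicle and 1.08 times with CORT.

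Eif4ebp1 encodes a repressor of cap-dependent translation that mTORC1 inactivates by phosphorylation. It lay on chromosome 16 between 68954860 and 68968248 and was at 12.5 FPKM under vehicle and 11.3 FPKM under CORT, a log2 ratio of -0.15. Eif4ebp1 and Sesn2 were the 2 genes of the 9 with a lower value in the CORT group.

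**Figure D1:**
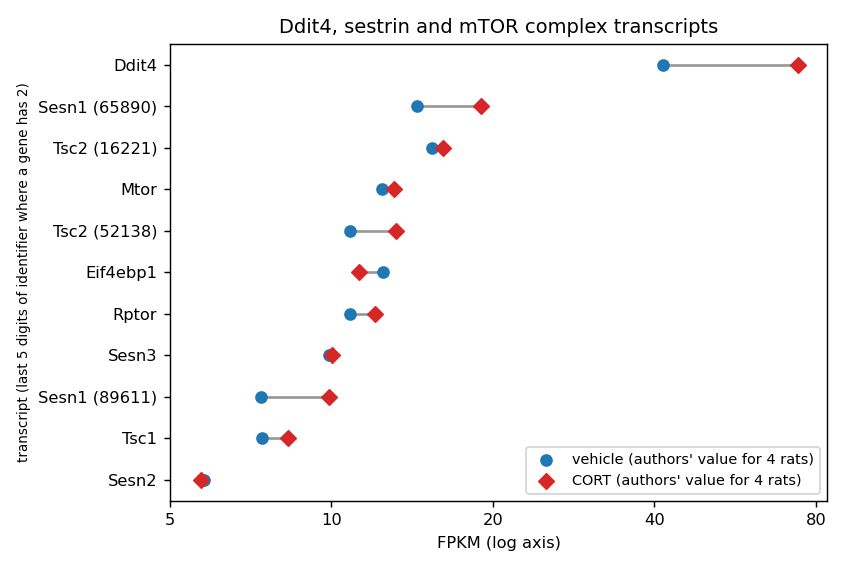
FPKM of each of the 11 transcripts in the vehicle group (circles) and the CORT group (diamonds) on a log axis, with 1 group value of the authors' table for each and the last 5 digits of the identifier where a gene has 2 transcripts. Ddit4 lies to the right of all others in both groups with the longest bar, from 41.5 to 73.9 FPKM, both Sesn1 bars run to the right, and those of Sesn2 and Sesn3 have almost no length.

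In order of level, with transcripts summed per gene, the vehicle group ran from Ddit4 through Tsc2, Sesn1, Eif4ebp1, Mtor, Rptor, Sesn3 and Tsc1 to Sesn2 at 5.79 FPKM. The order in the CORT group was the same except that Eif4ebp1 came after Mtor and Rptor. Whether neighbours in this order differ beyond the spread between rats could not be told from group values. Ddit4 was 1.90 times as abundant as Sesn1 with vehicle and 2.56 times with CORT, and 1.58 and 2.52 times as abundant as Tsc2. The median log2 ratio of the 11 transcripts was 0.15, beside 0.02 over all transcripts, and 9 of the 11 were above zero, beside 8746 of 15808. Without Ddit4 and Sesn1 the median was 0.07 over the 8 other transcripts.

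**Figure D2:**
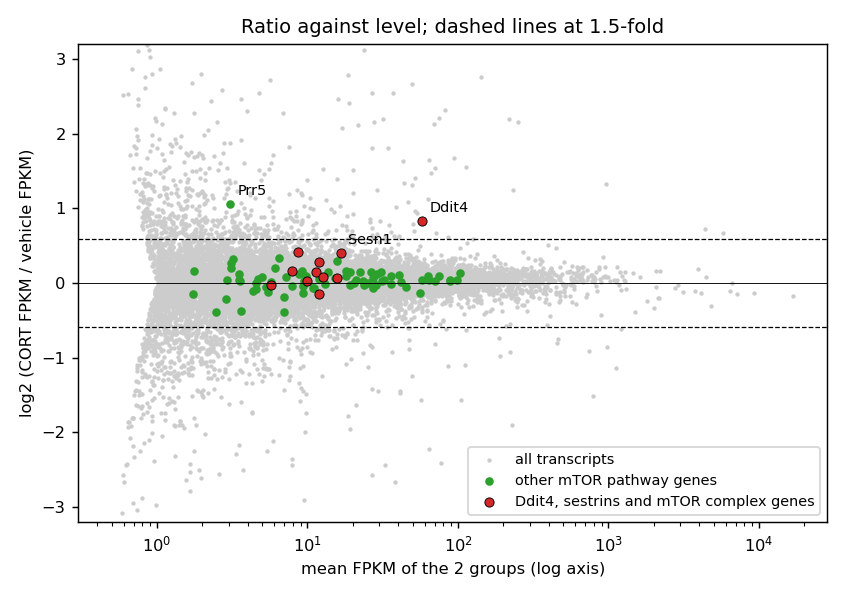
Log2 ratio of CORT to vehicle FPKM against the mean FPKM of the 2 groups (log axis) for the 15808 transcripts that reached 1 FPKM, with the transcripts of Ddit4, the sestrins and the mTOR complex in red, other mTOR pathway genes in green and dashed lines at 1.5-fold. Ddit4 lies above the upper line where the cloud of transcripts is narrow, while Prr5 lies above it where the cloud is wide, and 62 transcripts, 1 of them of a pathway gene (Prkag1), lie outside the axis limits of 3.2.

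The pattern nearest to that of Ddit4, measured as the distance in the plane of log2 ratio and log2 mean FPKM over the 2 groups, was that of Tsc22d3, which encodes the glucocorticoid-induced leucine zipper protein GILZ. Its transcript was at 36.5 FPKM under vehicle and 69.6 FPKM under CORT, a log2 ratio of 0.93 at a distance of 0.16. A transcript of the small nucleolar RNA SNORA40 (35.0 and 68.1 FPKM, distance 0.21) and one of the amyloid precursor gene App (36.6 and 63.5 FPKM, distance 0.21) came next. Likeness over 2 values says only that level and ratio were close.

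In the rest of the mTOR pathway most ratios were close to 1. Of 69 other pathway genes listed, 64 had a row under the listed symbol, with 74 transcripts that all reached 1 FPKM. Of these, 2 were past the fold, both with the higher value in the CORT group, which is 2.70% beside the 8.45% of all transcripts, and the median log2 ratio was 0.04. One was Prr5, which encodes Protor-1, a subunit of mTOR complex 2 (mTORC2). Its transcript on chromosome 7 of rn6 (125576326 to 125613114) was at 1.98 FPKM under vehicle and 4.12 FPKM under CORT, a log2 ratio of 1.06. This is at a level of 1 to 5 FPKM, where 7.11% of transcripts were past the fold with the higher value in the CORT group.

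The other was 1 of 3 transcripts of Prkag1, a regulatory subunit of the energy sensor AMPK, listed at 0.00073 FPKM under vehicle and 1.46 FPKM under CORT. The main Prkag1 transcript was at 58.6 FPKM under vehicle and 53.6 FPKM under CORT. With its transcripts summed Prkag1 was not past the fold, so that Prr5 remained as 1 of 64 pathway genes. This is 1.56%, near the 1.71% of all genes past the fold and higher with CORT on that scale.

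By function, the other subunits of mTORC1 and mTORC2 ranged from the 1.06 of Prr5 to -0.38 for its paralog Prr5l, which went from 4.08 to 3.14 FPKM, around a median log2 ratio of 0.04. Rheb, the GTPase on which TSC1-TSC2 acts, its relative Rhebl1 and Tbc1d7, the further subunit of the TSC complex, were between 0.00 for Rhebl1 and 0.05 for Tbc1d7. The 12 genes of the Rag GTPases, the Ragulator and their regulators lay between -0.22 for the lysosomal arginine sensor Slc38a9 and 0.15 for Flcn, which encodes folliculin. Apart from Prr5, no transcript of these 3 lists was past the fold.

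Among the GATOR and KICSTOR genes through which sestrins act, the 14 transcripts lay between -0.12 for Itfg2 and 0.20 for a transcript of the GATOR1 subunit Nprl3. The arginine sensor genes Castor1 and Castor2 have rows under the older symbols Gatsl3 and Gatsl2, matched after the data were seen. Gatsl3 was at 2.11 FPKM under vehicle and 2.64 FPKM under CORT, a log2 ratio of 0.33, and Gatsl2 was at 6.23 and 7.77 FPKM, a log2 ratio of 0.32, both below the fold.

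The AMPK and LKB1 genes, apart from the minor Prkag1 transcript, were below the fold, the lowest being Prkab1 at -0.13. The PI3K to Akt genes lay between -0.07 for Akt2 and 0.32 for the PI3K catalytic subunit Pik3cb. Among the substrates and effectors of mTORC1, the extremes were both transcripts of Lpin1, a phosphatidate phosphatase, at -0.39 and 0.26, and Tfeb, a transcription factor of lysosomal genes, was at -0.39 as well. The kinase gene Rps6kb1 was at 13.0 FPKM under vehicle and 12.9 FPKM under CORT. No transcript in that list was past the fold.

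Ddit4 and the sestrin genes are known targets of several stress-responsive regulators, and the other targets of these regulators were set beside them, with transcripts summed per gene. On that scale 5.14% of 12992 genes were past the fold, 1.71% with the higher value in the CORT group. Of 10 targets of the glucocorticoid receptor, 9 were past the fold, all higher with CORT, and the median log2 ratio was 0.92. Earlier results on these rats had shown several of these genes higher with CORT, so the list is not independent evidence.

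The lowest ratio in that list was 0.55 for Dusp1, a MAP kinase phosphatase that fell short of the fold, and the highest was 2.54 for Pdk4, a kinase that limits glucose oxidation. Fkbp5, a co-chaperone of the receptor, was at 18.6 FPKM under vehicle and 33.8 FPKM under CORT, a log2 ratio of 0.86. Per1 was at 0.95, Sgk1 at 1.19 and Tsc22d3 at 0.91 on the summed scale.

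None of 10 targets of ATF4, the stress factor known to induce Sesn2 and Ddit4, was past the fold. Their log2 ratios lay between -0.24 for the cystine transporter Slc7a11 and 0.36 for Cebpb, with a median of 0.03. None of 9 hypoxia targets was past it, between -0.17 for Egln3, a prolyl hydroxylase, and 0.44 for the glucose transporter Slc2a1, with a median of 0.04. Among 8 targets of p53, with a median of 0.03, 1 was past the fold. That gene was Cdkn1a, which encodes the cell-cycle inhibitor p21, at 11.7 FPKM under vehicle and 21.2 FPKM under CORT, a log2 ratio of 0.85, while Tp53inp1 was lowest at -0.31. Of 9 FoxO factors and targets none was past the fold. They lay between -0.43 for the ubiquitin ligase gene Fbxo32 and 0.57, just short of the fold, for the repressor gene Bcl6. Their median was 0.12, and 8 of the 9 were above zero, beside 7190 of 12992 genes.

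**Figure D3:**
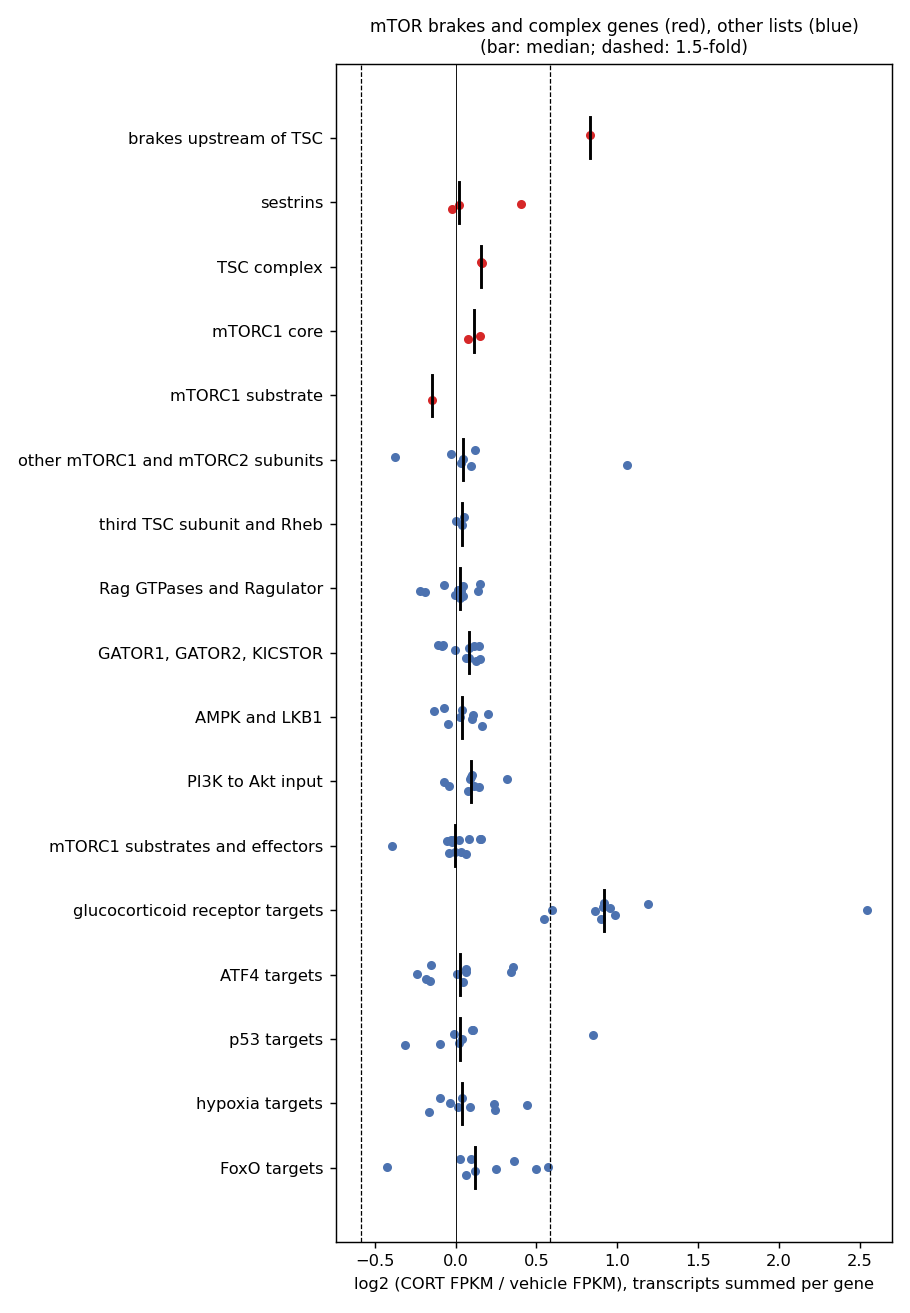
Log2 ratio of CORT to vehicle FPKM, transcripts summed, for each gene (point) of the 5 groups of mTOR brakes and complex genes (red), 7 lists of other pathway genes and 5 lists of regulator targets (blue), with the median as a bar and dashed lines at 1.5-fold. The glucocorticoid receptor targets lie to the right with a median of 0.92, Ddit4 lies at 0.83, and the pathway lists are centred near zero.

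Markers of several cell types and tissues differed between the group values. Markers of hippocampal neurons, such as Camk2a and Slc17a7, were at a summed 2879 FPKM under vehicle and 3125 FPKM under CORT. Of 10 markers 9 were present, and 1, Zbtb20, was past the fold and higher with CORT. Zbtb20 was at low levels, 1.55 FPKM under vehicle and 2.72 FPKM under CORT. Prox1, C1ql2 and Neurod6 had log2 ratios of -0.28, -0.16 and -0.10. Over all genes, 1.71% were past the fold with the higher value in the CORT group and 3.43% with the lower value. Of 8 thalamic and habenular markers 7 were present, 6 of them past the fold and lower with CORT, with a sum of 35.5 FPKM under vehicle and 19.4 FPKM under CORT. Of 8 meningeal markers 7 were present, 4 of them past the fold and lower, with sums of 121.0 and 88.5 FPKM, and all 4 blood markers were past it and lower, with sums of 1419 and 812 FPKM.

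Of the glial and vascular lists, 2 of 8 astrocyte markers (Gfap and Sox9) were past the fold, both lower with CORT. The astrocyte median log2 ratio was -0.09, and 2 of the 8, Slc1a2 at 0.14 and Aldoc at 0.18, were above zero. Of 7 endothelial markers present, 1 (Kdr) was past the fold and lower with CORT. The endothelial median was -0.44, and only Flt1, at 0.01, was above zero. None of 8 oligodendrocyte and none of 8 microglial markers was past the fold, with median log2 ratios of -0.23 and -0.21. The choroid plexus markers, 7 of 8 present, were also not past the fold, with sums of 6760 and 6748 FPKM. No marker with a row was at 0 in either group. In bulk tissue, fewer cells of a type and less RNA per cell cannot be told apart. The part of these shifts in the values of Ddit4 and Sesn1 was not tested.

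**Figure D4:**
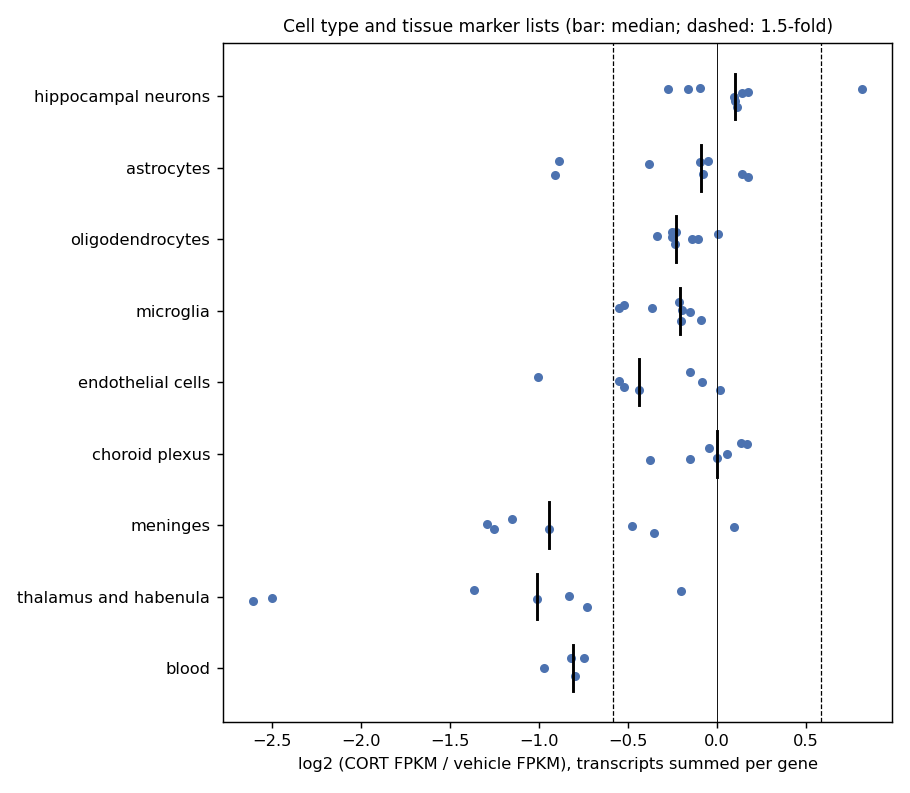
Log2 ratio of CORT to vehicle FPKM, transcripts summed, for each marker gene (point) of 9 cell type and tissue lists, with the median as a bar and dashed lines at 1.5-fold. Markers of meninges, thalamus and habenula, and blood lie mostly to the left, with medians of -0.94, -1.01 and -0.81, and markers of hippocampal neurons lie around 0.10.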

How the data were processed

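Hippocampal RNA of 8 rats was sequenced with a stranded Illumina kit. The submitters' processing notes name CASAVA 1.8.2, TopHat2 2.0.10, Cuffdiff 2.2.0 and the rn6 build. The authors deposited 1 FPKM value per transcript and group, with geometric normalization between libraries, corrections for multiply mapped reads, sequence bias and effective length, and removal of transcripts under a minimum alignment count. Loci are printed as deposited. The table also holds the authors' own fold changes, test statistics, p-values and q-values, which were not used. No column belonged to another sample. Transcripts of one gene share reads, so their split depends on the estimation.

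The log2 ratio of CORT to vehicle FPKM was computed without a pseudocount. A transcript was called at 1.5-fold or more if either group reached 1 FPKM. No test was run, since there was 1 value per group. All 10 genes were named. From each pathway and regulator list, genes past the fold and the highest and lowest were named, with Fkbp5, Per1, Sgk1, Tsc22d3 and the 3 genes nearest to the largest ratio. Rps6kb1, Castor1, Castor2, Tfeb and the marker genes were named after their values were seen. The genes and lists were chosen with earlier results of these data known, and the promoter motifs after the ratios had been seen. Promoter sequences are from RefSeq (GRCr8). The calling step was run on simulated data as a check of the computation only. Whether the calls hold against the spread between rats was not tested. Python 3.11.15, numpy 2.4.6, pandas 2.3.3 and matplotlib 3.10.9 were used. Alternatives were pseudocounts, filters, other folds, centring and summed transcripts.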

Additional observations from a re-analysis of the deposited data

How the results depend on the processing

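Ddit4 was the 1 transcript of the 11 past the fold under pseudocounts of 1 and 0.1 FPKM, no filter, the filters of 1 FPKM in both groups and 5 FPKM in one, centring on the median and summed transcripts. At a difference of 25%, 3 transcripts passed (Ddit4 and both of Sesn1), and at 2-fold 0 passed. Of the log2 ratios of the 11 transcripts, none moved by 0.1 or more with a pseudocount or centring, and 1 did with transcripts summed, that of the less abundant Tsc2 transcript, from 0.28 to 0.16. The 2 pathway transcripts past the fold became 1 (Prr5) with 1 FPKM in both groups or with transcripts summed, 0 with 5 FPKM in one group, which leaves out Prr5, and 6 at a difference of 25%, 3 higher and 3 lower with CORT. Over all transcripts, 1335 were past the fold, against 719 with a pseudocount of 1 FPKM, 807 with 1 FPKM in both groups, 419 with 5 FPKM in one group, 668 with transcripts summed, 3053 at a difference of 25% and 562 at 2-fold. With transcripts summed, 222 of the 668 were higher with CORT, against 632 of the 1335. The counts of the 5 regulator lists were the same with the highest transcript of each gene in place of the sum.

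Results without single rats were not computed, as the table has 1 value per group. No paired analysis was possible because each group has 1 pooled column. Depth per rat is unknown, and with it the limit of detection.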
